A study of Homo sapiens with 6 samples.

Results

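The constitutive proteasome genes were taken as the protein-coding genes named PSMA to PSMG with a number, without the inducible immunoproteasome genes PSMB8, PSMB9, PSMB10 and PSMB11 and the activator genes PSME1 and PSME2. The rule found 42 of the 28307 genes in the count table. It gave 15 genes of the 20S core, 17 of the 19S cap, 7 of assembly chaperones and 3 of other regulators. Of these, 41 had enough counts to be tested. The exception was PSMA8, the testis form of an alpha subunit, which had 1 count in 1 library and 0 in the other libraries.

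The cells were OCI-AML3, an established human acute myeloid leukaemia line, grown in culture. The labels enter its genotype as WT, although the line is known to carry a mutant NPM1 allele (NPM1c) whose protein is held in the cytoplasm. They were transfected with a control siRNA (siControl, 3 libraries) or with an siRNA against the mutant allele (siNPM1c, 3 libraries), each at 10 nM with the same lipid reagent, and total RNA was taken on day 3. Both groups therefore share the mutant allele, the transfection and a single batch label. Nothing in the labels says that the libraries of a group came from separate cultures, so each p-value reflects the spread among these 6 libraries, possibly a technical one. In bulk RNA, fewer cells with a transcript and less of it in each cell cannot be told apart.

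Libraries held 15075235 to 25190122 counts, of which 3414688 to 6695652 fell on protein-coding genes and 8025 to 17289 on the 42 proteasome genes. The rRNA share of the counts was 63.8% ± 0.755 (SD, n = 3) in siControl and 70.2% ± 0.85 in siNPM1c, and its part in the results below was not tested. The target NPM1 had 922, 1366 and 922 counts under siControl and 293, 500 and 350 under siNPM1c, a log2 fold change of -1.10 ± 0.05 (SE), with both alleles counted together. The myeloid markers CEBPA (213 to 262 CPM, counts scaled by library size after TMM adjustment) and SPI1 (78.1 to 125) were high in every library and CD33 lay between 8.42 and 9.62. MPO reached only 1.96 CPM and KIT only 2 counts. Of the lymphoid markers reported here, CD3E had at most 3 counts and MS4A1 at most 4.

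The proteasome is the protease that degrades proteins tagged with ubiquitin. Its 20S core is a barrel of 2 outer rings of alpha subunits and 2 inner rings of beta subunits, and the peptide bonds are cut inside the beta rings. The 19S cap sits on the barrel, binds the tagged protein, removes the ubiquitin, unfolds the protein with a ring of ATPases and feeds it into the core. Within the core, and within each cap, the subunits are built in equal numbers. The genes of both are known to be induced together by the transcription factor NFE2L1 when proteasome activity falls short.

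The proteasome genes changed little, and those called did not all move in the same direction. Relative to the bulk of genes, 11 of the 41 tested fell and 4 rose in the siNPM1c libraries, and 26 did not pass the test (edgeR's quasi-likelihood test, adjusted p under 0.05). Over all 12938 genes tested, 42.7% were called, 21.4% as lower and 21.3% as higher. The proteasome genes were called in 36.6%, near that background, with 26.8% lower and 9.76% higher. Their median log2 fold change was -0.12, against -0.01 over all genes tested, and single genes ranged from -0.71 (PSMG2) to 0.35 (PSMD12). Called or not, 31 of the 41 had a negative log2 fold change and 10 a positive one. Over all 12938 genes tested, 6629 were negative and 6309 positive. Negative values were found for 13 of 14 core genes and 11 of 17 cap genes. The siControl and siNPM1c libraries did not overlap in 17 of the 41 genes, where 49.2% of all genes tested did not overlap. By share of protein-coding counts, the 42 genes took 0.258%, 0.258% and 0.262% under siControl and 0.235%, 0.238% and 0.24% under siNPM1c.

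**Figure D1:**
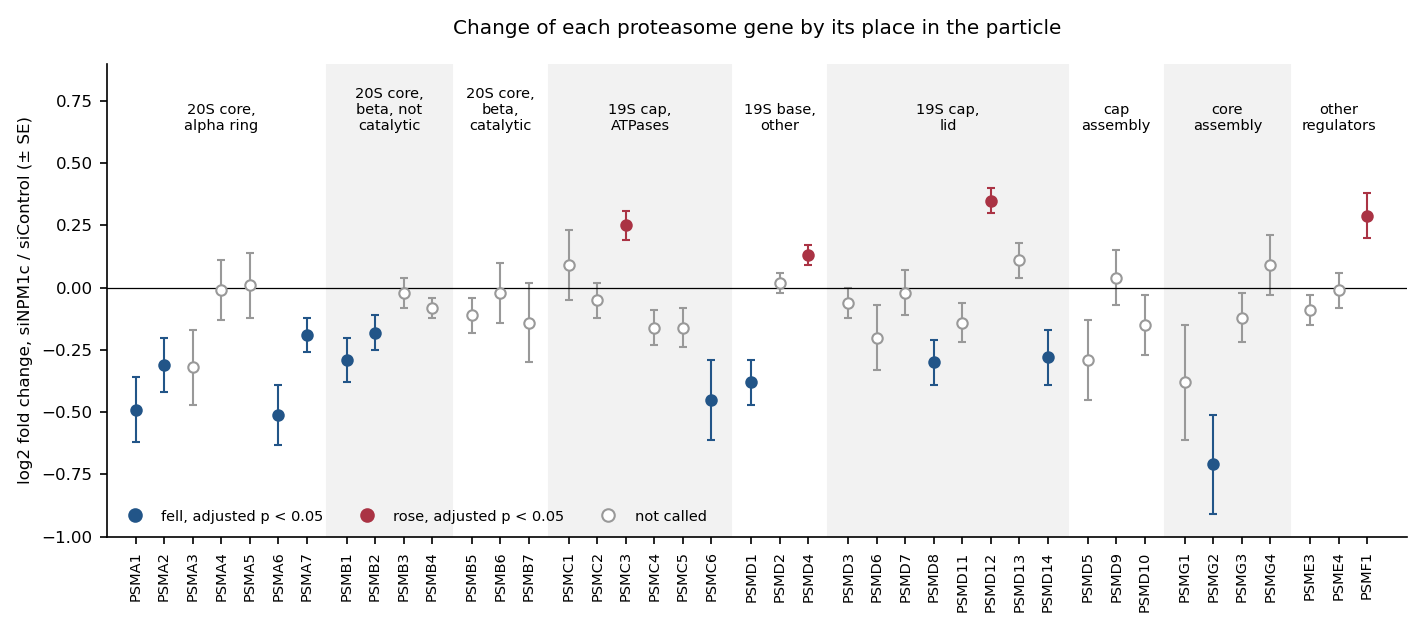
The log2 fold change of siNPM1c over siControl is shown for each of the 41 tested genes, grouped by their place in the particle, with bars of 1 SE. Filled points passed an adjusted p of 0.05. The 6 called core genes lie below 0, while called cap genes lie on both sides, from PSMC6 (-0.45) to PSMD12 (0.35).

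PSMA6 had the largest fall in the core, PSMC6 the largest fall in the cap and PSMD12 the largest rise in the cap. Their promoter sequences, the 250 bases before the most upstream start in the promoter table used (RefSeq, GRCh38.p14), are shown because these genes are built into 1 particle but moved in opposite directions. The windows lie at chr14:35292067-35292316 on the plus strand for PSMA6, at chr14:52706950-52707199 on the plus strand for PSMC6 and at chr17:67366578-67366827 on the minus strand for PSMD12. The PSMA6 window lies inside the span that RefSeq gives the gene, which begins further upstream at 35278558, whereas the other two windows end where the gene begins. Capitals mark matches, on either strand, to TGACNNNGC (the core of the antioxidant response element that NFE2L1 binds), CCAAT (the CCAAT box), CCGGAAGT (an ETS site) or GGGCGG (a GC box). No 2 matches overlapped in these windows.
PSMA6: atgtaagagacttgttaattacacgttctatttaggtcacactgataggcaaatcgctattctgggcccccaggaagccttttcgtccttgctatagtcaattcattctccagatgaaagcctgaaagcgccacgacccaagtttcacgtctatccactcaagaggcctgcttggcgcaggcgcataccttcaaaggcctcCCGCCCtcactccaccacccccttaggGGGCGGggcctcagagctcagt
PSMC6: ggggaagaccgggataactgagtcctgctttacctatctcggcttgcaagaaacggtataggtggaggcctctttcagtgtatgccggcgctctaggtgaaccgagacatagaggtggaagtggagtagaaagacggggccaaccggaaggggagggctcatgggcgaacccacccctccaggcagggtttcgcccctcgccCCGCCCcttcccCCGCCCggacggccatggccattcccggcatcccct
PSMD12: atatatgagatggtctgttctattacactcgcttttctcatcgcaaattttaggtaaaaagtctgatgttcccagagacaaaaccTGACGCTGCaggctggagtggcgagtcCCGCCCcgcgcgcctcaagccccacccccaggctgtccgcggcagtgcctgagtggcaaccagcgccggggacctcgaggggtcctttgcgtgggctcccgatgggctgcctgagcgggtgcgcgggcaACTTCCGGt
In PSMD12, TGACNNNGC was matched from 165 bases before the start and CCGGAAGT, on the other strand, from 9 bases before it. PSMA6 and PSMC6 held GC boxes only, each 2 of them. Promoters were listed for 36 of the 42 genes, not for PSMA7, PSMB1, PSMB6, PSMB7, PSMD4 and PSMG3, and a gene was counted where any of its windows held the letters. TGACNNNGC was found for 10 of the 36 (27.8%), against 16.2% of the tested coding genes with a listed promoter. It was found for 2 of 11 core and 3 of 16 cap genes. Of these 10 genes PSMD12 rose, PSMG2 fell and 8 were not called. CCAAT was found for 17 genes (47.2%, against 41.7%), CCGGAAGT for 6 (16.7%, against 8.49%) and GGGCGG for 23 (63.9%, against 74.7%). The 36 include PSMA8, which was not tested and is 1 of the 6 with CCGGAAGT, whereas the background shares are over tested genes. Over all coding genes with a listed promoter, tested or not, the share with CCGGAAGT was 5.82%. The matches describe letters in a window and show no binding.

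In the 20S core, 6 of 14 tested genes fell and 0 rose, and the median log2 fold change was -0.16. The share called was 42.9%, against 42.7% of all genes tested. The core calls were all lower, where 21.4% of all genes tested were lower and 21.3% higher. An unadjusted p under 0.05 was reached by 7 of the 14 (50%), against 49.3% of all genes tested. DESeq2 called 3 core genes lower and 0 higher, where it called 14% of all its tested genes lower and 15.1% higher. The alpha ring, which forms the gate of the barrel and the seat of the cap, held 4 of the 6, namely PSMA1, PSMA2, PSMA6 and PSMA7, among 7 tested. That is 57.1% called, on only 7 genes, against 42.7% of all genes tested. PSMA6 (chromosome 14, 35278558 to 35317493) was at 7.34, 8.11 and 8.08 CPM under siControl and at 4.81, 5.37 and 6.35 CPM under siNPM1c. Every siNPM1c library lay below every siControl library, and the gene was 1.43-fold lower (log2 fold change -0.51 ± 0.12, SE, adjusted p = 0.00017 by edgeR's quasi-likelihood test). PSMA1 (chromosome 11, 14504876 to 14643662) fell by 0.49 on the log2 scale (SE 0.13), with 121, 182 and 133 counts in siControl and 51, 106 and 81 in siNPM1c. The calls of PSMA6 and PSMA1 held in all 13 other settings tried, among them each library left out in turn. Another of the 13, library sizes alone, called 71.5% of all genes tested lower and 3.9% higher. That setting favours falls, so holding there adds little.

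The calls of the other 2 alpha genes depended on single libraries and on the method. PSMA2 fell by 0.31 on the log2 scale (SE 0.11), a call lost without siNPM1c replicate 2 (adjusted p = 0.0509 by edgeR), without siNPM1c replicate 3 (0.167), with the GC correction (-0.09, 0.564) and with DESeq2 (0.0774). PSMA7 fell by 0.19 (SE 0.07), lost without siControl replicate 1 (0.0794) or 2 (0.0534) and without siNPM1c replicate 1 (0.141) or 2 (0.163), all by edgeR, and with DESeq2 (0.0969). PSMA3 had a fold change of similar size (-0.32 ± 0.15) that did not pass the test. PSMA3 overlaps the counted gene PSMA3-AS1 (0.22 ± 0.15), and reads of the pair cannot be told apart without a stated strand setting. PSMA4 (-0.01 ± 0.12) and PSMA5 (0.01 ± 0.13) were near 0. Genes of the same ring thus spanned -0.51 to 0.01.

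In the beta rings, 2 of 7 genes fell and 0 rose, 28.6% called against 42.7% of all genes tested. PSMB1, a beta subunit without a catalytic site, was at 13.5, 13.1 and 13.7 CPM in siControl and at 10.4, 11 and 11.4 CPM in siNPM1c. The groups did not overlap, and PSMB1 fell by 0.29 on the log2 scale (SE 0.09, adjusted p = 0.00372 by edgeR). This call was lost with a correction for GC content (-0.19, adjusted p = 0.0828). PSMB2 fell by 0.18 (SE 0.07), but its call was lost when any siControl replicate (adjusted p = 0.0525 to 0.0778 by edgeR), siNPM1c replicate 1 (0.129) or siNPM1c replicate 3 (0.274) was left out. It was also lost with the GC correction (-0.10, adjusted p = 0.269 by edgeR) and with DESeq2 (0.104). PSMB3 (-0.02 ± 0.06) and PSMB4 (-0.08 ± 0.04) did not pass, although PSMB4 did without siControl replicate 1 (-0.11, adjusted p = 0.0472 by edgeR). Per kilobase of transcript, siControl levels of the tested core genes ran from 2.14 CPM for PSMA5 to 54.2 for PSMB4, although the subunits are equal in number in the particle. The transcript lengths are medians of GENCODE 29 and may not be the lengths used in these cells.

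None of the 3 catalytic genes passed the test. PSMB5, the chymotrypsin-like subunit and the main target of the drug bortezomib, was at 18.1, 19.3 and 18.1 CPM in siControl and at 16.9, 16.3 and 18.6 CPM in siNPM1c. PSMB6, the caspase-like subunit, was at 6.73, 7.14 and 7.7 CPM against 6.62, 7.9 and 6.42 CPM. PSMB7, the trypsin-like subunit, was at 4.11, 3.48 and 4.52 CPM against 3.31, 3.83 and 3.58 CPM. For each of the 3 the groups overlapped. Their log2 fold changes were -0.11 ± 0.07 (SE) for PSMB5, -0.02 ± 0.12 for PSMB6 and -0.14 ± 0.16 for PSMB7.

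In the 19S cap, 4 of 17 tested genes fell and 3 rose, with a median log2 fold change of -0.06. These are 41.2% called against 42.7% of all genes tested, with 23.5% lower against 21.4% and 17.6% higher against 21.3%. The cap was thus near the background in both directions. The cap ATPases unfold the substrate. Among the 6 of them, PSMC3 rose and PSMC6 fell, 33.3% called against 42.7% of all genes tested. PSMC3 (chromosome 11, 47418775 to 47426439) was at 25, 23.4 and 21.6 CPM in siControl and at 28, 28.9 and 26.2 CPM in siNPM1c, 1.19-fold higher without overlap (0.25 ± 0.06, adjusted p = 0.00032 by edgeR). PSMC6 (chromosome 14, 52707200 to 52728590) was at 4.45, 4.38 and 5.17 CPM against 3.16, 3.26 and 3.78 CPM, 1.37-fold lower without overlap (-0.45 ± 0.16, adjusted p = 0.0125). The fall of PSMC6 was lost without siControl replicate 3 (adjusted p = 0.0685 by edgeR), without siNPM1c replicate 2 (0.0708), with the GC correction (-0.25, 0.203) and with DESeq2 (0.057). PSMC1, PSMC2, PSMC4 and PSMC5 lay between -0.16 and 0.09.

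The other base subunits bind ubiquitin and hold the cap together. PSMD4, a ubiquitin receptor, was at 51.1, 47.1 and 46.5 CPM in siControl and at 52.8, 52.5 and 52.7 CPM in siNPM1c. The rise was 1.09-fold (0.13 ± 0.04, adjusted p = 0.0121 by edgeR), and it was lost without siControl replicate 2 (0.0722) or 3 (0.062), with no filter on low counts (0.0685) and with DESeq2 (0.0647). PSMD1, a scaffold of the base (chromosome 2, 231056867 to 231172827), was at 12.7, 11.6 and 12.1 CPM against 8.58, 9.2 and 10 CPM. It fell 1.3-fold without overlap (-0.38 ± 0.09, adjusted p = 0.000358), and the call held in all 13 other settings. PSMD1 holds the counted gene HTR2B within its span. PSMD2, the other large scaffold, was at 51.9, 50 and 53.4 CPM against 54.6, 48.8 and 55 CPM (0.02 ± 0.04, not called).

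The lid carries the deubiquitinase that frees the substrate of its tag. Of 8 lid genes 1 rose and 2 fell, 37.5% called against 42.7% of all genes tested. PSMD12, a structural subunit of the lid (chromosome 17, 67337916 to 67366577), was at 28, 29.2 and 29.1 CPM in siControl and at 37.7, 36.9 and 35.3 CPM in siNPM1c. The groups were well apart, and PSMD12 rose 1.27-fold (0.35 ± 0.05, adjusted p = 1.35e-08 by edgeR), the smallest p of the 41 genes. It rose by 0.54 with the GC correction. PSMD8, also a lid subunit, was at 15.2, 14.6 and 14.2 CPM against 12.8, 12 and 10.9 CPM and fell 1.23-fold without overlap (-0.30 ± 0.09, adjusted p = 0.00206), a call kept in all 13 other settings. PSMD14, the deubiquitinase itself, fell by 0.28 (SE 0.11, adjusted p = 0.0394). That call was lost without siControl replicate 2 (0.183) or 3 (0.175), without siNPM1c replicate 1 (0.156) or 3 (0.08) and with the GC correction (0.249), all by edgeR, and with DESeq2 (0.14). PSMD3, PSMD6, PSMD7, PSMD11 and PSMD13 were not called and lay between -0.20 and 0.11.

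**Figure D2:**
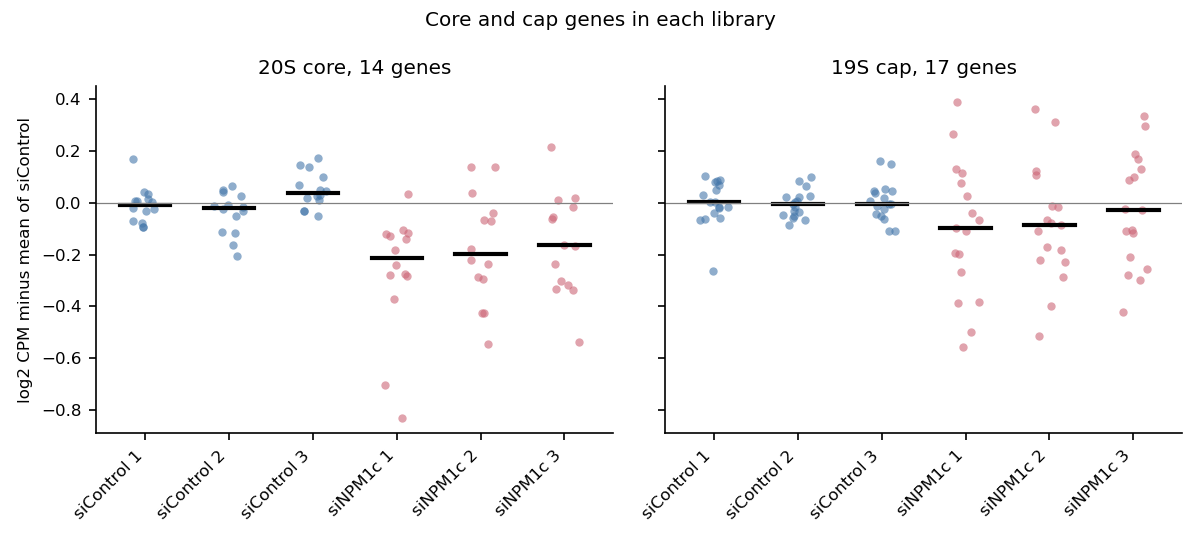
Each point is 1 gene in 1 library, as its log2 CPM minus its mean over the siControl libraries, and the black line is the median. The core medians are -0.21, -0.20 and -0.16 in the siNPM1c libraries and the cap medians -0.10, -0.08 and -0.03.

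Core and cap were compared inside each library, where the scaling of libraries cancels. The summed core genes were at 195, 199 and 204 CPM in siControl and at 173, 183 and 184 CPM in siNPM1c. The summed cap genes were at 333, 327 and 329 CPM against 333, 330 and 336 CPM. The ratio of core to cap was 0.585, 0.607 and 0.619 in siControl and 0.519, 0.553 and 0.547 in siNPM1c, so that the groups did not overlap. The mean ratio went from 0.604 ± 0.0172 to 0.54 ± 0.0181 (SD, n = 3), a change of -10.6%, larger than the spread between libraries. The ratio of core to cap is given without the GC correction. Taking each gene with equal weight, the mean log2 fold change of the core was lower than that of the cap by a difference of -0.12, which became -0.08 with the GC correction. With that correction the median log2 fold changes were close, -0.10 for the core and -0.08 for the cap. No p is given for these scores, because the genes were grouped with earlier results of these data known. The ratio of summed alpha to summed beta CPM was 0.441, 0.405 and 0.42 in siControl and 0.378, 0.369 and 0.402 in siNPM1c, also without overlap. The median GC content was 43.2% for the tested alpha genes and 48.7% for the beta genes. This ratio is given without the GC correction, and the part of GC content in it was not tested.

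Assembly chaperones build the particle and leave it. Of 7 tested, PSMG2 fell and 0 rose. An unadjusted p under 0.05 was reached by 1 of the 7 (14.3%), against 49.3% of all genes tested. DESeq2 also called PSMG2 as lower and 0 as higher. PSMG2, which pairs with PSMG1 to build the alpha ring, had 37, 98 and 61 counts in siControl and 24, 46 and 21 in siNPM1c. In CPM these were 2.06, 3.55 and 3.28 against 1.81, 2.2 and 1.42, so the groups overlapped. The log2 fold change was -0.71 ± 0.20 (SE, adjusted p = 0.0022 by edgeR), and without siControl replicate 2 it was -0.53 with the call lost (0.0607). PSMG2 overlaps the counted genes CEP76 and SPIRE1.

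PSMG1 was at 2.78, 1.85 and 2.05 CPM against 2.33, 1.15 and 1.76 CPM (-0.38 ± 0.23). The second pair for the alpha ring is PSMG3, at 11.6, 10.7 and 10.3 CPM against 10.8, 9.53 and 9.79 CPM (-0.12 ± 0.10), and PSMG4, at 6.62, 6.96 and 6.14 CPM against 8.05, 7.52 and 5.47 CPM (0.09 ± 0.12). None of these was called, and the groups overlapped in each. PSMD5, PSMD9 and PSMD10 guide the ATPase ring of the cap into place. PSMD5 was at 3.67, 4.17 and 4.36 CPM against 3.54, 3.98 and 2.3 CPM (-0.29 ± 0.16). PSMD9 was at 9.73, 8.26 and 7.43 CPM against 8.88, 9.39 and 7.56 CPM (0.04 ± 0.11), and PSMD10, also known as gankyrin, at 5.95, 6.99 and 8.78 CPM against 5.72, 6.71 and 7.02 CPM (-0.15 ± 0.12). None of these 3 was called. PSMG1 passed without siNPM1c replicate 1 (adjusted p = 0.048 by edgeR) and PSMD5 without siNPM1c replicate 2 (0.0441).

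Among the other regulators, PSMF1 rose. PSMF1 encodes PI31, a protein first described as an inhibitor of the 20S core. It was at 11.8, 9.82 and 9.69 CPM in siControl and at 12.3, 12.6 and 13.2 CPM in siNPM1c, without overlap and 1.22-fold higher (0.29 ± 0.09, adjusted p = 0.00623 by edgeR). Without siControl replicate 2 the call was lost (0.24, adjusted p = 0.0582). PSME3, the nuclear activator ring, was at 26.5, 28.7 and 30.5 CPM against 25.7, 27.7 and 26.9 CPM (-0.09 ± 0.06). PSME4, the activator PA200, was at 17.5, 19.3 and 19.4 CPM against 19.1, 18.3 and 18.5 CPM (-0.01 ± 0.07). Neither was called, and the groups overlapped for both.

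The inducible subunits PSMB8, PSMB9 and PSMB10 replace PSMB5, PSMB6 and PSMB7 when interferon turns the core into an immunoproteasome. All 3 rose, by 0.32 ± 0.07, 0.61 ± 0.10 and 0.20 ± 0.05 log2 (SE). With the GC correction the rises were 0.27, 0.57 and 0.11, that of PSMB10 only just called (adjusted p = 0.0491 by edgeR). PSME2, a subunit of the interferon-induced activator ring, rose by 0.45 ± 0.06, while its partner PSME1 (-0.10 ± 0.06) was not called. Inside each library, the ratio of PSMB9 to PSMB6 counts was 1.17, 0.929 and 0.937 in siControl and 1.59, 1.36 and 1.79 in siNPM1c. The ratio of PSMB8 to PSMB5 was 1.16, 1.05 and 1.13 against 1.64, 1.57 and 1.26, and that of PSMB10 to PSMB7 was 10.6, 12.3 and 8.8 against 15, 12.6 and 13.4. In all 3 pairs every siNPM1c library lay above every siControl library. These ratios are given without the GC correction. GC content was 53.9% for PSMB9 and 54.9% for PSMB6, 54.9% for PSMB8 and 52.2% for PSMB5, and 61.9% for PSMB10 and 48.7% for PSMB7. The differences in log2 ratio, with 0.5 added to each count, were 0.64, 0.41 and 0.37 in the order given. Each had p = 0.1 by an exact permutation test, two-sided, on 3 libraries a group, which is the smallest p it can give, and 0.1 after Benjamini-Hochberg adjustment over the 3 pairs. The pairs therefore could not pass 0.05 in this design.

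**Figure D3:**
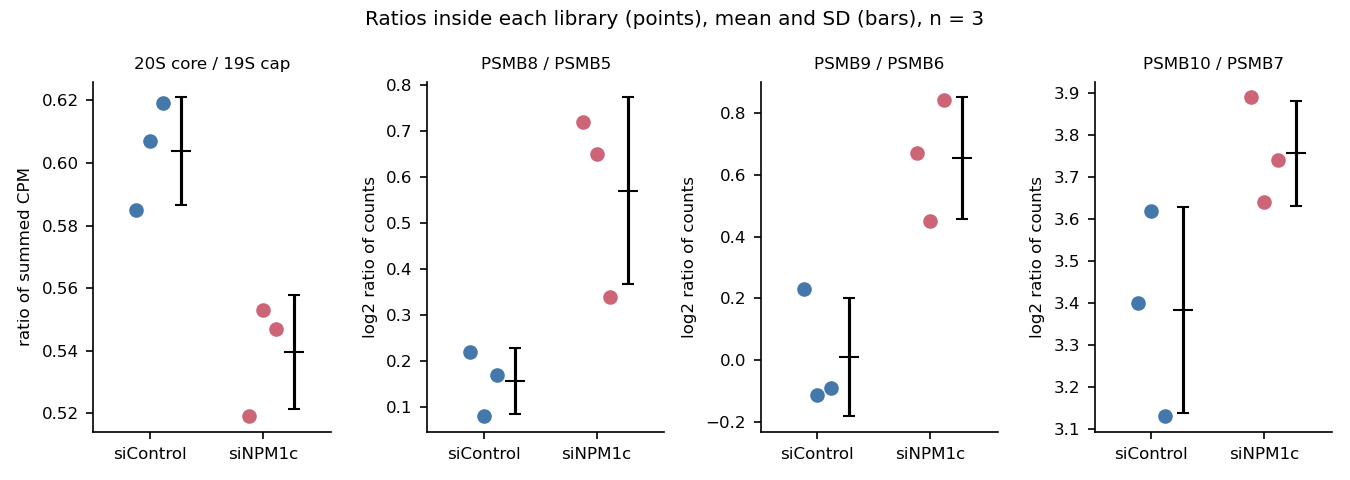
Points are single libraries, and bars are the mean and SD of 3. The ratio of summed core to cap CPM is lower in siNPM1c (0.519 to 0.553) than in siControl (0.585 to 0.619), and the log2 count ratio of each inducible catalytic gene to the constitutive gene it replaces is higher in every siNPM1c library.

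Around the particle, 42 genes of proteasome function outside the naming rule were all tested, and 9 rose and 13 fell, 52.4% called against the 42.7% of all genes. Of the subunits and factors with other names, ADRM1, the second ubiquitin receptor of the base (0.02 ± 0.06), and SEM1, the smallest lid subunit (0.41 ± 0.20), were not called. SEM1 passed without siControl replicate 1 (adjusted p = 0.0294 by edgeR), without siNPM1c replicate 1 (0.0315) and with the GC correction (0.0397). POMP, the chaperone that helps the core mature, fell by 0.33 (SE 0.10), but with the GC correction its log2 fold change was 0.02 and was not called. Among 14 shuttle receptors, deubiquitinases and particle-bound factors, 4 rose and 4 fell, 57.1% called against 42.7% of all genes tested. RAD23B, which carries tagged proteins to the cap, rose by 0.30 ± 0.05 and IPO9, an importin that carries proteasomes into the nucleus, fell by 0.36 (SE 0.05).

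Of 9 transcriptional regulators of proteasome genes 3 rose and 1 fell, 44.4% called against 42.7% of all genes tested. NFE2L1 itself was at 60.8, 60.5 and 56.6 CPM against 60, 60.8 and 65.3 CPM (0.06 ± 0.04) and was not called. NFE2L2, the related factor of the oxidative stress response, rose by 0.45 ± 0.07, and NFYA, a subunit of the CCAAT-binding factor, fell by 0.34 (SE 0.11), a call lost without siNPM1c replicate 3 (adjusted p = 0.0538 by edgeR). Of 10 genes of the p97 segregase, which pulls tagged proteins out of complexes, 1 rose and 4 fell, 50% called against 42.7%. Those that fell include FAF2 by 0.36 (SE 0.08) and UBXN4 by 0.49 (SE 0.11).

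Changes of the proteasome genes went along with the GC content of their transcripts. Of the 20 members with the lowest GC content (39.5% to 46.7%), 9 fell and 1 rose. Of the 21 with the highest (46.9% to 58.8%), 2 fell and 3 rose. Over all GC contents, 21.4% of all genes tested were lower and 21.3% higher. The shares of all genes called within these GC ranges are not given here, so these counts are descriptions only. Across the 41 genes Pearson's r between GC content and log2 fold change was 0.34 and Spearman's rho 0.33, and Pearson's r was -0.06 after a correction of each library's GC trend. The correction removes the trend over all genes, so a value near 0 is largely built in. The points share the same 6 libraries, so r and rho are descriptions. All genes tested also sloped, with a median log2 fold change of -0.25 among those of lowest GC content (32% to 40.5%) and of 0.11 among those of highest (62.6% to 85.2%). The median GC content was 45.2% for the core and 47.3% for the cap. With the correction 7 members fell and 4 rose, against 19.2% and 20.7% of all genes tested, and 3 of the 14 core genes fell (PSMA1, PSMA6 and PSMA7). The calls of PSMA2, PSMB1, PSMB2, PSMC6 and PSMD14 were lost, and PSMC4 became called (-0.21, adjusted p = 0.0151 by edgeR). The median log2 fold change was then -0.10 for the core and -0.08 for the cap.

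**Figure D4:**
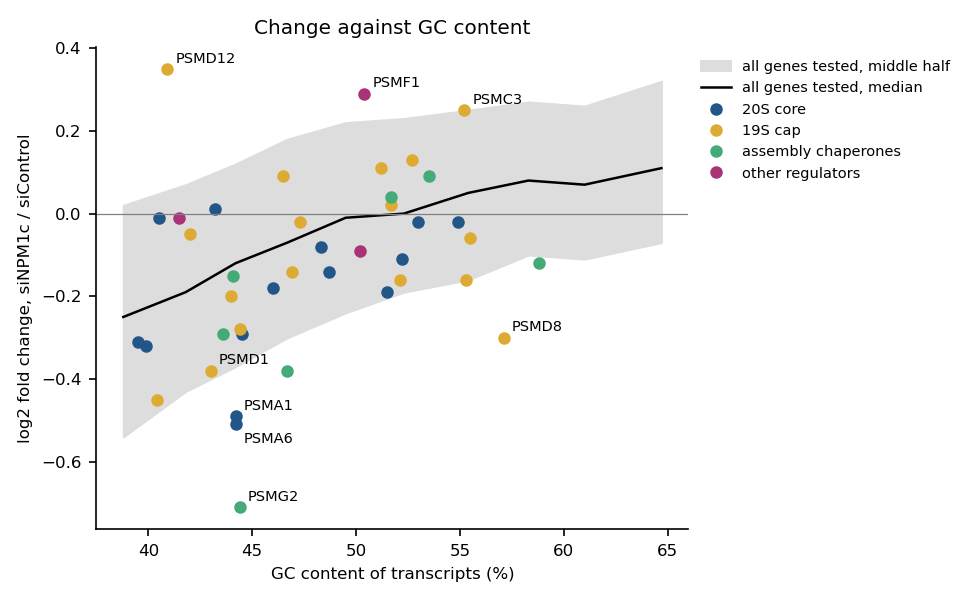
The log2 fold change of each proteasome gene is plotted against the GC content of its transcripts. The line is the median and the band the quartiles of all genes tested, in 10 bins of GC content, and the line runs from -0.25 to 0.11. PSMD12 (0.35) lies above the band, while PSMA1, PSMA6, PSMD8 and PSMG2 are among the genes below it.

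Each direction above is relative to the bulk of genes. Scaled by library size without that adjustment, the median of all genes moved to -0.48 and that of the proteasome genes to -0.59, and 39 members were lower and 0 higher, against 71.5% and 3.9% of all genes tested. The rises of PSMC3, PSMD4, PSMD12 and PSMF1 above are thus relative to that shift, with values of -0.22, -0.34, -0.12 and -0.18 under library sizes alone, as are those of PSMB8 (-0.15), PSMB10 (-0.27), PSME2 (-0.02), RAD23B (-0.17) and NFE2L2 (-0.02). PSMB9 stayed above 0 there (0.14) but lost its call (adjusted p = 0.231 by edgeR). RefSeq lists 46 pseudogenes of 20 members, 13 of them of PSMC1, and none is a row of the table. Reads that fit both may be lost or given to the parent gene. Spans of 10 members overlap another counted gene.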

How the data were processed

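RNA sequencing of total RNA from 6 libraries (siControl and siNPM1c, 3 each) was analysed from 1 deposited count table, in which the authors gave whole, unnormalized counts by Entrez gene. Tools in the submitters' processing notes include STAR 2.7.5a and cutadapt 2.6, with hg38 among the builds. Which program counted reads, on which annotation and with which strand setting, is not given in the sources used here. Symbols came from RefSeq (GRCh38.p14), which matched 28261 of 28307 genes. Within groups, pairs of libraries had a chi-square per degree of freedom of 1.46 to 2.36, above sampling noise, and each was treated as its own library. That spread does not show that they came from separate cultures. The common coefficient of variation in the edgeR fit was only 2.17%, a spread at which a rise of 1.09-fold (PSMD4) was called.

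Counts were tested in R 4.3.3 with edgeR 4.0.16: filterByExpr (minimum count 10, minimum total 15), TMM scaling, glmQLFit with robust = TRUE and glmQLFTest, two-sided, Benjamini-Hochberg over all 12938 genes tested, called under 0.05. Fold changes are siNPM1c minus siControl, and SE is the absolute log2 fold change over the square root of F. GC content and length are medians over GENCODE 29 transcripts, of coding ones for length. The method was tested on simulated data. Alternatives were DESeq2 size factors, library sizes alone, protein-coding genes only, no filter beyond 1 count, DESeq2 1.42.0, the replicate number as a block, a GC correction (lowess, span 0.3, as an offset) and each library left out. Members and lists were chosen with earlier results of these data known. Values in every library are given for the catalytic genes, the called gene with the largest rise and fall of each subcomplex, the assembly chaperones and the other regulators. Outside the members the rule names NPM1, the inducible subunits, ADRM1, SEM1, POMP, NFE2L1 and up to 2 called genes with the smallest p of each other list. Some genes that the rule or the marker list names are not reported here. PSMA1, PSMD2 and the overlapping genes were added after their values were seen.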

Additional observations from a re-analysis of the deposited data

How the results depend on the processing

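With library sizes alone, 14 core genes were lower (median -0.63), 16 cap genes were lower and 0 higher (median -0.53), and of the other pathway genes 37 were lower and 0 higher. Of all genes tested, 71.5% were lower in that setting and 3.9% higher. Signs then turned also for PSMA5 (-0.46), PSMC1 (-0.37), PSMD2 (-0.45), PSMD9 (-0.43), PSMD13 (-0.36), PSMG4 (-0.38), ADRM1 (-0.44), SEM1 (-0.06) and NFE2L1 (-0.41), beside those given above (PSMC3 -0.22, PSMD4 -0.34, PSMD12 -0.12, PSMF1 -0.18, PSMB8 -0.15, PSMB10 -0.27, PSME2 -0.02, RAD23B -0.17, NFE2L2 -0.02), and the 39 lower and 0 higher members had a median of -0.59. In that setting rRNA counts are part of the size by which a library is divided. With the GC correction 7 members were lower (median -0.08), 3 of them core genes (median -0.10), and signs turned for PSMA4 (0.20), PSMC2 (0.11), PSMD7 (0.03), PSME4 (0.16), ADRM1 (-0.09) and POMP (0.02). Of all genes tested, 19.2% were lower with that correction and 20.7% higher. DESeq2 called 6 members as lower, 3 of the core and 2 of the cap, where it called 14% of all its tested genes lower and 15.1% higher. It lost the calls of PSMA2 (adjusted p = 0.0774), PSMA7 (0.0969), PSMB2 (0.104), PSMC6 (0.057), PSMD4 (0.0647) and PSMD14 (0.14). With no filter the members' median was -0.14, PSMD4 lost its call (adjusted p = 0.0685 by edgeR), and PSMA5 (-0.02) and PSMD2 (-0.00) turned. PSMA4 turned with DESeq2 size factors (0.00) and with protein-coding genes only (0.01). The causes of these changes were not tested.

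With 1 library left out, 7 to 10 members were lower and 2 to 4 higher, 4 to 5 core genes lower, 2 to 4 cap genes lower and 2 to 3 higher, and 10 to 12 other pathway genes lower and 6 to 9 higher. Over all genes tested, 16.6% to 19.4% were then lower and 18.4% to 20.1% higher. The fewest lower members (7) and the fewest higher ones (2) were found without siControl replicate 2, and the fewest lower cap genes (2) without siControl replicate 3. The medians ran from -0.13 to -0.07 for the members, from -0.19 to -0.12 for the core and from -0.09 to -0.05 for the cap. Genes near 0 that crossed it, none called, were PSMA4 (-0.11 to 0.09), PSMA5 (-0.10 to 0.15), PSMB3 (-0.05 to 0.03), PSMB6 (-0.13 to 0.04), PSMC1 (-0.02 to 0.23), PSMD2 (-0.01 to 0.09), PSMD7 (-0.08 to 0.05), PSMD9 (-0.04 to 0.13) and PSME4 (-0.06 to 0.01). Of the 15 called members, 7 kept their call and direction in each of the 6 such fits and 4 in all 13 settings. Library sizes alone is among the 13 and favours falls, and the 4 (PSMA1, PSMA6, PSMD1 and PSMD8) all fell. The rises of PSMC3 and PSMD12 kept call and direction in 12 of the 13, all but library sizes alone. The partner ratios kept their direction with 2 counts added and with each library left out. The difference between core and cap stayed between -0.14 and -0.08 in every setting. With DESeq2 size factors, library sizes alone, protein-coding genes only and no filter it was -0.12, as in the main fit. These 4 settings mainly change the scaling of libraries, which cancels in this difference, so they could not test it.

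The replicate numbers were shared between groups, but same-numbered libraries did not deviate together (correlations of 0.0193, -0.00266 and -0.00408, and 2 of 6 libraries correlated best with their own number). With the replicate block 11 members were lower and 4 higher, as without it, and 43.2% of all genes were called. Depth limits the low genes most: PSMG1 and PSMG2 had 21 to 98 counts per library.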
